A study of Mus musculus with 8 samples.

Results

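The 33 genes described here encode lysosomal glycosidases, sulfatases, lipid hydrolases with their activators, peptidases and proteins of the lysosomal membrane. They were chosen by gene symbol, without a threshold on any value, and all 33 were among the 21528 genes tested. Transcript levels were measured on Agilent Cy3 arrays in every group in J774.1 cells, a line of macrophage type from BALB/c mice. There were 4 groups of 2 arrays: control cells, cells given isorhamnetin at 10 µM, cells given tamarixetin at 10 µM and cells given Torin1 at 1 µM, with 6 h of treatment. The authors' design text calls the replicates biological. The labels used here say nothing of a vehicle for the control cells or of how long these were kept.

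Lysosomes break down glycans, lipids, nucleic acids and proteins with acid hydrolases that work in a lumen acidified by a proton pump. Many of these genes carry E-box sites of the CLEAR type near their start, to which the MiT/TFE transcription factors such as TFEB and TFE3 bind. The kinase complex mTORC1 phosphorylates these factors and keeps them in the cytoplasm, and Torin1 blocks the kinase mTOR. Isorhamnetin and tamarixetin are isomers, O-methylated forms of the flavonol quercetin that differ in which of 2 neighbouring hydroxyl groups carries the methyl group.

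A level is the log2 processed signal of a gene's probe minus the 75th percentile of its array, so that a difference of 1 is a 2-fold change, and levels were compared only within a gene. Fold changes are differences in these levels with the SE of the fit, and a gene was called at an adjusted p under 0.05 in limma. All 33 genes were well above background on all 8 arrays and none was saturated. The 75th percentile was a signal between 324 and 404 and 41.5% to 52.3% of probes were well above background on an array, and replicate arrays correlated at 0.992 to 0.997. Of 10 macrophage markers 9 were above background on all 8 arrays and Mrc1 was on none. Their summed linear level, relative to the 75th percentile, was 685 to 698 in control cells and 673 to 699 with Torin1, while single markers moved apart. Of the 9, 3 rose with Torin1 (Adgre1 by 1.45 ± 0.11, Cd68 by 0.37 ± 0.051 and Ptprc by 0.26 ± 0.062), 2 fell (Fcgr1 by 2.22 ± 0.13 and Spi1 by 0.39 ± 0.096) and 4 did not pass the test. No B cell, fibroblast or epithelial marker was above background on all arrays. The fibroblast marker Dcn was above it on 5 arrays, both Torin1 arrays among them, and was called higher with Torin1 (adjusted p = 0.0112 in limma). The summed T cell markers, of which Cd3e, Cd4 and Lck were above background on all arrays and Cd8a on none, were at 6.97 to 7.60 in control cells and 4.40 to 4.83 with Torin1. Of 4 tested T cell markers, Cd4 and Lck fell with Torin1, by 0.78 ± 0.12 and 0.59 ± 0.094, and none rose. Of the neutrophil markers S100a8 and Elane were above background on all arrays and Mpo on none, and their sum was 2.84 to 3.05 in control cells and 1.91 to 1.99 with Torin1, where Elane fell by 1.12 ± 0.24 and S100a8 rose by 0.28 ± 0.063. The part of these markers in the results was not tested. All arrays lay on 1 slide, control and isorhamnetin in its first row and tamarixetin and Torin1 in its second. The groups that share a row occupied different slide columns, so no comparison can tell group from position. The row differs for Torin1 against control, tamarixetin against control and isorhamnetin against tamarixetin. The column differs in every comparison except tamarixetin against control. Torin1 against tamarixetin, given beside Torin1 against control, removes the difference in row but keeps one in column. With 2 arrays against 2, an exact two-sided permutation test cannot go below 0.333, so the tests are those of limma across all genes.

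Most of the 33 genes rose with Torin1. Against control, 19 rose, 1 fell and 13 did not pass the test, and the median log2 fold change was 0.36. Among all genes tested 20% rose and 29.1% fell, with a median of -0.08. The largest rises were 2.63-fold for the asparaginyl endopeptidase Lgmn, 2.61-fold for the chloride/proton exchanger Clcn7 and 2.59-fold for the heparan sulfate hydrolase Naglu, and the GM2 activator Gm2a was the gene that fell. Against tamarixetin, in the same slide row, 21 rose and 1 fell with a median of 0.37, where 18.7% of all genes rose and 25.2% fell. The 19 genes that rose against control all rose against tamarixetin as well, as a comparison that shares the Torin1 arrays. Scaling the arrays on their median moved the median of all genes against control from -0.08 to -0.27, and then 12 of the 33 genes rose and 3 fell. The median of the 33 genes was then 0.17, and it was 0.21 when probes of a gene were averaged. It lay 0.44 above that of all genes under either scaling, and 0.32 to 0.46 above it under the other scalings tried, lowest with normexp background correction.

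**Figure D1:**
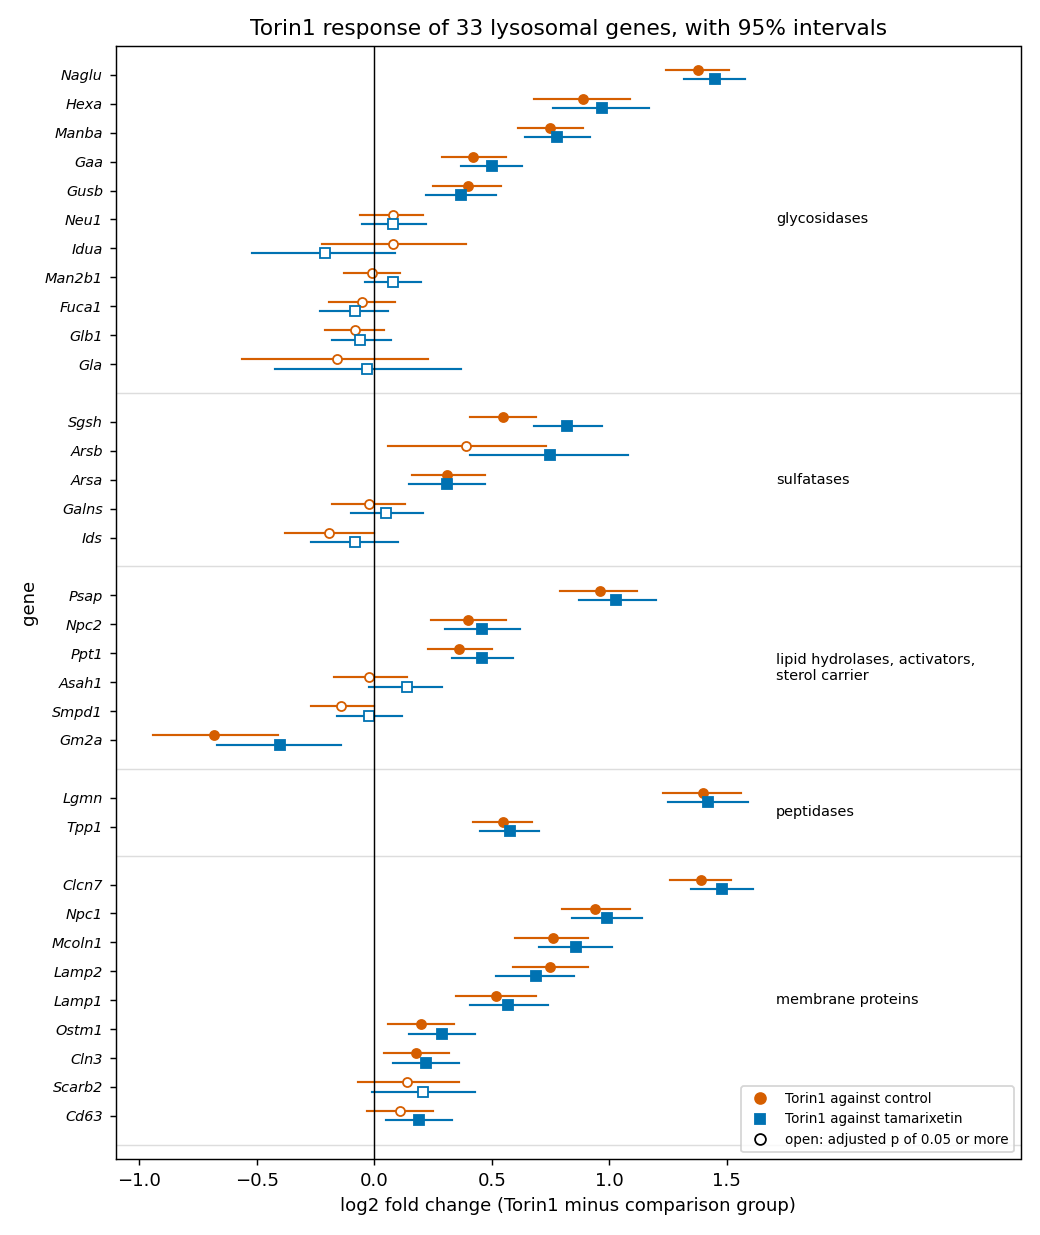
Log2 fold change of the 33 genes, on the horizontal axis, for Torin1 against control (orange circles) and Torin1 against tamarixetin (blue squares), grouped by role, with bars for the 95% interval and open symbols for genes that did not pass the test. Lgmn, Clcn7 and Naglu lie farthest to the right at 1.40, 1.39 and 1.38 against control, and Gm2a is the filled symbol on the left at -0.68.

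The promoters of these genes are shown because several of the largest rises belong to genes with an E-box close to the start. Sequences are those of RefSeq for the mouse build GRCm38.p6, 250 bases before to 50 bases after each annotated start. Of the 33 genes, 30 matched an entry, and Asah1, Galns and Npc1 are named only. The 60-base windows below end at or before the start, run 5′ to 3′ along the gene's strand, and carry each CACGTG in capitals. Those of Arsa, Gaa and Cln3, which also hold a match and rose by 0.31, 0.42 and 0.18, are not printed.
Lgmn, chr12:102439109-102439168, minus strand: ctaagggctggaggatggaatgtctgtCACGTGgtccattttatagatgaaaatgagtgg
Clcn7, chr17:25133331-25133390, plus strand: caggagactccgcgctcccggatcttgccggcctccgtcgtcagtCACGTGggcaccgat
Naglu, chr11:101069994-101070053, plus strand: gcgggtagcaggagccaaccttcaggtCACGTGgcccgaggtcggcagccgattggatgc
Mcoln1, chr8:3500434-3500493, plus strand: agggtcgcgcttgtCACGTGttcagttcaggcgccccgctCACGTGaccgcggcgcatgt
Sgsh, chr11:119355511-119355570, minus strand: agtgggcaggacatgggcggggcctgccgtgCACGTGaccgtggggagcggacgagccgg
Lamp1, chr8:13159097-13159156, plus strand: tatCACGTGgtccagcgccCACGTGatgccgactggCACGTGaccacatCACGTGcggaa
Gla, chrX:134601184-134601243, minus strand: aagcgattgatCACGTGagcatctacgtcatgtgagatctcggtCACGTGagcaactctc
Glb1, chr9:114401003-114401062, plus strand: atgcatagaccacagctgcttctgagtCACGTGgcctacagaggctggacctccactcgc

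Lamp1 carries 4 matches within 61 bases of its start, and Mcoln1, Gla and Cln3 carry 2 each. The first match lies 49 bases before the start in Lgmn, 15 in Clcn7 and 73 in Naglu, and Clcn7 has 1 more match after the start. First matches lie 16 bases before the start in Arsa, 29 in Sgsh, 48 in Glb1 and 71 in Mcoln1. In Gaa, Cln3 and Gla they lie 140, 149 and 227 bases before it. Lgmn, Clcn7 and Cln3 each have 2 annotated starts, and a match lay before only 1 of them. Whether the distance goes with the rise was not tested. CACGTG, searched on both strands, was present in 11 of the 30 genes (36.7%) and in 8.09% of the 27025 genes of the promoter table. The longer TCACGTG, which contains CACGTG, was in the same 11 genes and in 4.29% of all genes. The full palindrome TCACGTGA, which contains both shorter motifs, was in 4 of the 30 (13.3%), namely Clcn7, Cln3, Gla and Mcoln1, and in 1.12% of all genes. Of the 11 genes with CACGTG, 9 rose with Torin1 and none fell, with a median log2 fold change of 0.52. Of the 19 without it, 9 rose and 1 fell, with a median of 0.20. Both sets held genes that rose and genes that did not pass the test. Gla and Glb1 carry a match and did not pass the test, with log2 fold changes of -0.16 and -0.08. Psap and Hexa rose by 0.96 and 0.89 without a match in this window. The difference between these sets of genes was not tested, and the Torin1 response of all genes was not split by the match.

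**Figure D2:**
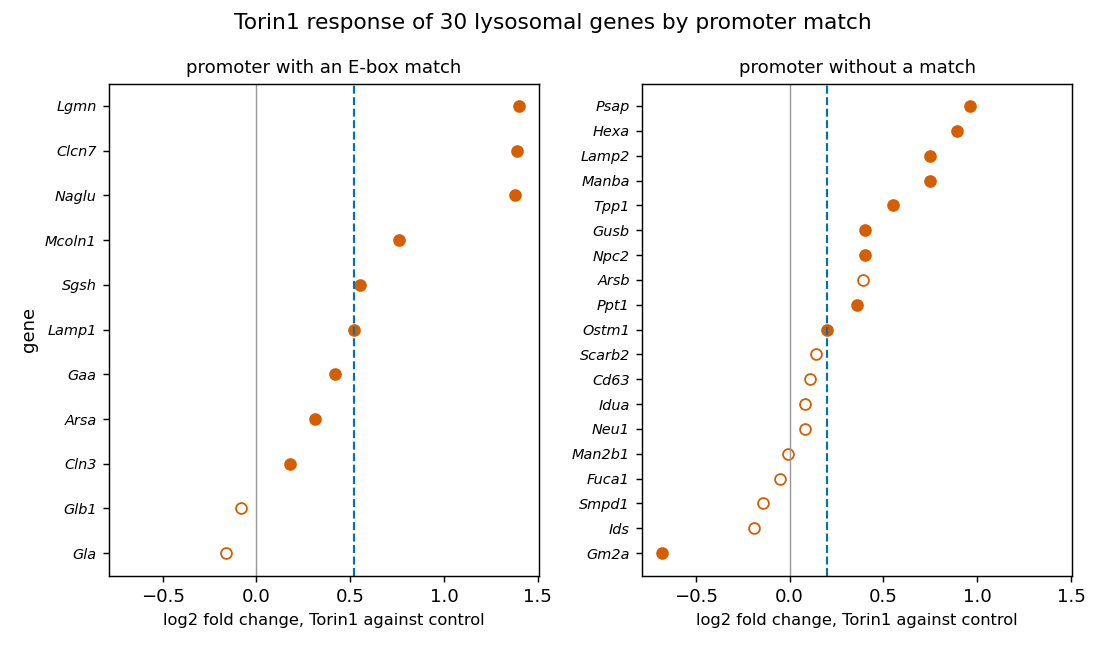
Log2 fold change with Torin1 against control for the 30 genes with a promoter entry, in 2 panels by whether the promoter holds CACGTG, with open circles for genes that did not pass the test and a dashed line at the median of each panel. The median is 0.52 for the 11 genes with a match and 0.20 for the 19 without, and both panels hold genes near 0.

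Among the 11 glycosidases, 5 rose with Torin1 (Naglu, Hexa, Manba, Gaa and Gusb), none fell, and the median log2 fold change was 0.08. Naglu encodes N-acetylglucosaminidase alpha, an exoenzyme of heparan sulfate breakdown. Its level was 4.17 and 4.13 in control cells, 4.28 and 4.22 after isorhamnetin, 4.08 and 4.07 after tamarixetin, and 5.55 and 5.50 after Torin1. Both Torin1 arrays lay above the other 6, and Naglu rose by 1.38 ± 0.053 (adjusted p = 6.86e-05). Hexa, the alpha subunit of beta-hexosaminidase A, stood at 4.85 and 4.78 in control cells, 4.75 and 4.81 after isorhamnetin, 4.84 and 4.63 after tamarixetin, and 5.72 and 5.68 after Torin1. It rose by 0.89 ± 0.081 (adjusted p = 0.000733), with no overlap between Torin1 and any other group. Manba, the beta-mannosidase, was at 1.72 and 1.73, 1.73 and 1.76, and 1.68 and 1.70 in control, isorhamnetin and tamarixetin cells, and at 2.52 and 2.42 with Torin1. Both Torin1 arrays lay above the other 6, and the rise was 0.75 ± 0.056 (adjusted p = 0.000411).

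Gaa, the acid alpha-glucosidase that degrades glycogen, rose by 0.42 ± 0.053, and Gusb, the beta-glucuronidase, by 0.40 ± 0.059. The other 6 glycosidases had log2 fold changes from -0.16 to 0.08. They are the alpha-fucosidase Fuca1 (-0.05), the alpha-galactosidase Gla (-0.16), the beta-galactosidase Glb1 (-0.08), the alpha-iduronidase Idua (0.08), the alpha-mannosidase Man2b1 (-0.01) and the sialidase Neu1 (0.08). Their intervals differ in width. That of Man2b1 runs from -0.13 to 0.11, and that of Gla from -0.56 to 0.23, where the control arrays themselves stood at 9.06 and 9.32. Neu1 and Glb1 belong to a complex with the protective protein Ctsa in the lysosome, and Ctsa, which is not one of the 33 and was picked after its value was seen, rose by 0.43 ± 0.063 (adjusted p = 0.00321). Of the mannosidases, Manba was called and Man2b1 was not, and their 95% intervals, 0.61 to 0.89 and -0.13 to 0.11, do not overlap. Of the glycosidases that act on heparan sulfate, Naglu and Gusb were called and Idua was not, but the interval of Idua, from -0.22 to 0.39, overlaps that of Gusb, from 0.25 to 0.54.

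Of the 5 sulfatases, 2 rose and none fell, with a median of 0.31. Sgsh, the sulfamidase of heparan sulfate, was at 6.94 and 7.02 in control cells, 6.84 and 6.86 after isorhamnetin, 6.66 and 6.75 after tamarixetin, and 7.52 and 7.53 after Torin1. The Torin1 arrays were the highest and the tamarixetin arrays the lowest, and Sgsh rose by 0.55 ± 0.058 against control (adjusted p = 0.00112) and by 0.82 ± 0.058 against tamarixetin (adjusted p = 0.000368). Arsa, the arylsulfatase that acts on sulfatide, was at 2.19 and 2.09, 2.10 and 2.14, and 2.18 and 2.12 in control, isorhamnetin and tamarixetin cells, and at 2.50 and 2.42 with Torin1. Its rise of 0.31 ± 0.063 (adjusted p = 0.0101) was not called without control replicate 2 (0.26, adjusted p = 0.0551) or without Torin1 replicate 1 (0.27, adjusted p = 0.0591). Galns, the sulfatase of keratan sulfate, and Ids, the iduronate sulfatase, had log2 fold changes of -0.02 ± 0.062 and -0.19 ± 0.075 and did not pass the test. Arsb, the sulfatase of dermatan sulfate, was at -2.06 and -2.03 in control cells, -2.21 and -1.94 after isorhamnetin, -2.56 and -2.23 after tamarixetin, and -1.64 and -1.66 after Torin1. Its change of 0.39 ± 0.14 did not pass the test against control (adjusted p = 0.058), although that of 0.75 ± 0.14 against tamarixetin did (adjusted p = 0.0075). A second Arsb probe gave -0.39 and -0.08 in these comparisons, so the 2 probes disagree in sign and no direction with Torin1 is concluded for Arsb. By its chosen probe it is counted among the 21 rises against tamarixetin.

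The 6 genes of lipid breakdown went both ways, with 3 called higher, 1 lower and a median of 0.17. Psap encodes prosaposin, the precursor of the saposins that present sphingolipids to their hydrolases. It stood at 3.92 and 3.96 in control cells, 3.96 and 4.08 after isorhamnetin, 3.91 and 3.83 after tamarixetin, and 4.87 and 4.93 after Torin1. With both Torin1 arrays above all others, Psap rose by 0.96 ± 0.066 (adjusted p = 0.000316). Npc2, the soluble carrier that takes up cholesterol in the lumen, was at 4.52 and 4.49, 4.39 and 4.37, and 4.52 and 4.38 without Torin1, in the same order of groups, and at 4.88 and 4.92 with it. Ppt1, the palmitoyl-protein thioesterase, was at 5.26 and 5.31, 5.19 and 5.14, and 5.21 and 5.16, and at 5.63 and 5.66 with Torin1. These are rises of 0.40 ± 0.064 for Npc2 (adjusted p = 0.00444) and 0.36 ± 0.053 for Ppt1 (adjusted p = 0.00325), without overlap with the other groups.

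Gm2a encodes the activator that lifts GM2 ganglioside out of the membrane for beta-hexosaminidase A. Its level was -0.17 and -0.29 in control cells, -0.57 and -0.48 after isorhamnetin, -0.44 and -0.55 after tamarixetin, and -1.03 and -0.77 after Torin1. The control arrays were the highest, both flavonol groups lay between, and the Torin1 arrays were the lowest. Gm2a fell by 0.68 ± 0.11 against control (adjusted p = 0.0041) and by 0.40 ± 0.11 against tamarixetin (adjusted p = 0.0267). The second call was lost without either tamarixetin array or without Torin1 replicate 1. The ceramidase Asah1 and the sphingomyelinase Smpd1 did not pass the test, with log2 fold changes of -0.02 ± 0.062 and -0.14 ± 0.056.

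Both peptidases rose. Lgmn was at 6.10 and 6.25 in control cells, 6.14 and 6.16 after isorhamnetin, 6.18 and 6.12 after tamarixetin, and 7.57 and 7.57 after Torin1. The other 6 arrays lay between 6.10 and 6.25, far below those with Torin1, and the rise was 1.40 ± 0.067 (adjusted p = 0.000115). Tpp1, the tripeptidyl peptidase, stood at 5.02 and 5.09, 4.94 and 4.95, and 5.04 and 5.01 without Torin1, and at 5.61 and 5.60 with it. It rose by 0.55 ± 0.050 (adjusted p = 0.000728).

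All 9 membrane proteins had a log2 fold change above 0 with Torin1, 7 passed the test and the median was 0.52, although with median scaling 3 of the 9 were below 0, Cln3 at -0.01, Cd63 at -0.08 and Scarb2 at -0.04. Clcn7 exchanges chloride for protons across the lysosomal membrane. It was at 3.31 and 3.36 in control cells, 3.44 and 3.41 after isorhamnetin, 3.22 and 3.26 after tamarixetin, and 4.74 and 4.69 after Torin1. The isorhamnetin arrays were slightly above and the tamarixetin arrays slightly below control, both far below Torin1, with which Clcn7 rose by 1.39 ± 0.052 (adjusted p = 6.68e-05). Ostm1, the subunit that Clcn7 needs for its stability, was at 2.16 and 2.26 in control cells and 2.42 and 2.41 with Torin1. Its rise was 0.20 ± 0.057 (adjusted p = 0.0323), and it was not called without control replicate 1 (0.15, adjusted p = 0.136), without Torin1 replicate 1 (0.20, adjusted p = 0.12) or without Torin1 replicate 2 (0.20, adjusted p = 0.11).

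Npc1 exports cholesterol from the lysosome together with Npc2. Its level was 1.83 and 1.87 in control cells, 1.85 and 1.93 after isorhamnetin, 1.85 and 1.76 after tamarixetin, and 2.78 and 2.80 after Torin1, a rise of 0.94 ± 0.059 (adjusted p = 0.000242). The calcium channel Mcoln1 was at 3.70 and 3.80, 3.69 and 3.74, and 3.68 and 3.61 without Torin1, and at 4.53 and 4.48 with it, a rise of 0.76 ± 0.062 (adjusted p = 0.000529). Neither gene had an array outside Torin1 that reached the Torin1 values. The abundant glycoproteins that line the membrane also rose, Lamp2 by 0.75 ± 0.066 and Lamp1 by 0.52 ± 0.068. Cln3, whose human counterpart is mutated in juvenile Batten disease, was at 0.18 ± 0.057 (adjusted p = 0.0427), a call that was lost without any 1 of the 8 arrays, at adjusted p from 0.0571 to 0.171. The tetraspanin Cd63 and Scarb2, the receptor that delivers beta-glucocerebrosidase, had log2 fold changes of 0.11 ± 0.056 and 0.14 ± 0.088 and did not pass the test against control. Against tamarixetin Cd63 was called at 0.19 ± 0.056 (adjusted p = 0.0377), by a smaller change than any other called rise there, a call that each of the 8 arrays, once left out, removed (adjusted p from 0.0525 to 0.156).

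**Figure D3:**
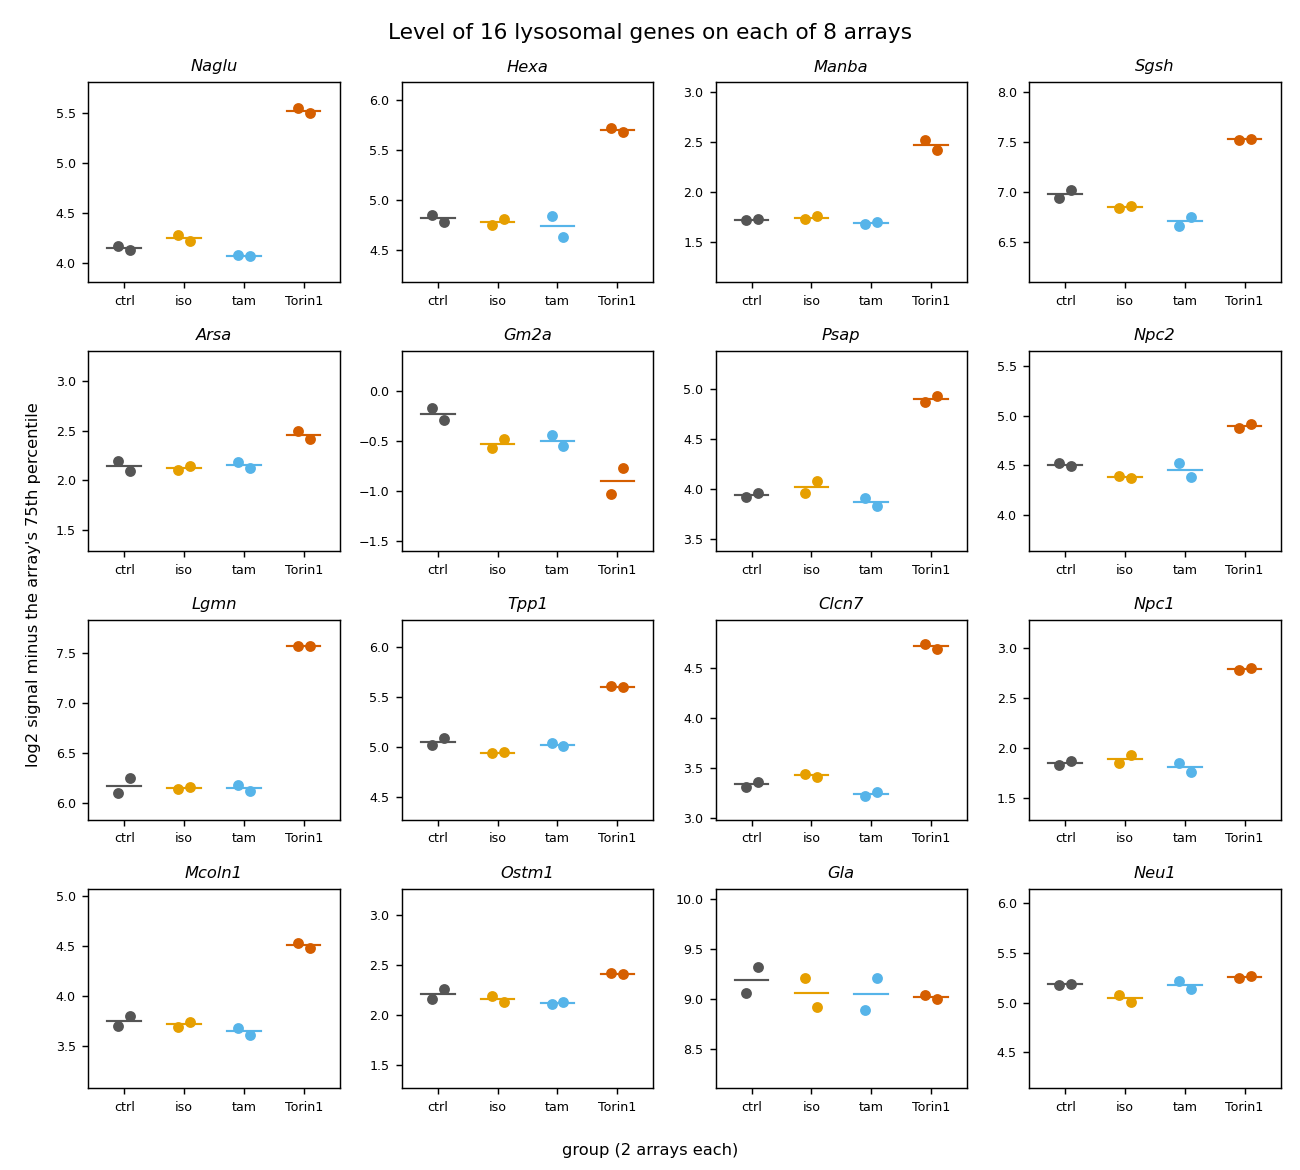
Level of 16 of the 33 genes on each array, as log2 signal minus the 75th percentile of the array, with 2 points and a bar at the mean for control (ctrl), isorhamnetin (iso), tamarixetin (tam) and Torin1, each panel spanning 2 log2 units. Naglu, Lgmn and Clcn7 show both Torin1 arrays at 4.69 or higher and far above their other 6 arrays, Gm2a shows them lowest at -1.03 and -0.77, and Gla shows as much spread within groups as between them.

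Neither flavonol moved any of the 33 genes past the threshold. Isorhamnetin against control had 0 called higher and 0 lower in limma, where 0.432% of all genes were higher and 0.13% lower. The median of the 33 was -0.05 and that of all genes 0.00, and the lowest adjusted p was 0.232, for Smpd1. An unadjusted p under 0.05 was reached by 3358 of all 21528 genes and by 5 of the 33. These 5 were all below control: Gm2a at -0.30 ± 0.11, Asah1 at -0.18 ± 0.062, Smpd1 at -0.18 ± 0.056, Cd63 at -0.15 ± 0.056 and Neu1 at -0.14 ± 0.055. Tamarixetin against control also had 0 called, where 0.0697% of all genes were higher and 0.00929% lower. Its median was -0.07 and that of all genes -0.02. Here 2859 of all 21528 genes and 4 of the 33 had an unadjusted p under 0.05. These 4 were Arsb at -0.35 ± 0.14, Gm2a at -0.27 ± 0.11, Sgsh at -0.27 ± 0.058 and Asah1 at -0.16 ± 0.062. The lowest adjusted p there was 0.193, for Sgsh. The second kept probe of Asah1 gave 0.15 with isorhamnetin and 0.16 with tamarixetin, so its probes disagree in sign. No direction with either flavonol is concluded for Asah1. The second Arsb probe gave -0.31 with tamarixetin, the same sign as the first. These comparisons share the control arrays. Of the 33 genes, 25 were below control with isorhamnetin and 28 with tamarixetin, beside 10872 and 12140 of all 21528 genes.

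The isomers were compared with each other at the same dose and time, as 1 pair of compounds over the 33 genes with p-values adjusted over all genes tested. None was called, where 0.534% of all genes were higher with isorhamnetin and 0.246% lower, and the median difference was 0.00. An unadjusted p under 0.05 was reached by 2672 of all 21528 genes and by 3 of the 33, all higher with isorhamnetin. They were Clcn7 with a difference of 0.19 (95% interval 0.06 to 0.32), Naglu with 0.18 (0.04 to 0.31) and Gaa with 0.16 (0.03 to 0.29), at adjusted p from 0.251 to 0.312. For 32 of the 33 genes the interval of the difference lay within 0.5 of 0 on either side. The exception was Arsb, at 0.33 with an interval from -0.01 to 0.66, where its second probe gave 0.08. Over the 33 genes the bounds ran from -0.41, for Idua, to 0.66.

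**Figure D4:**
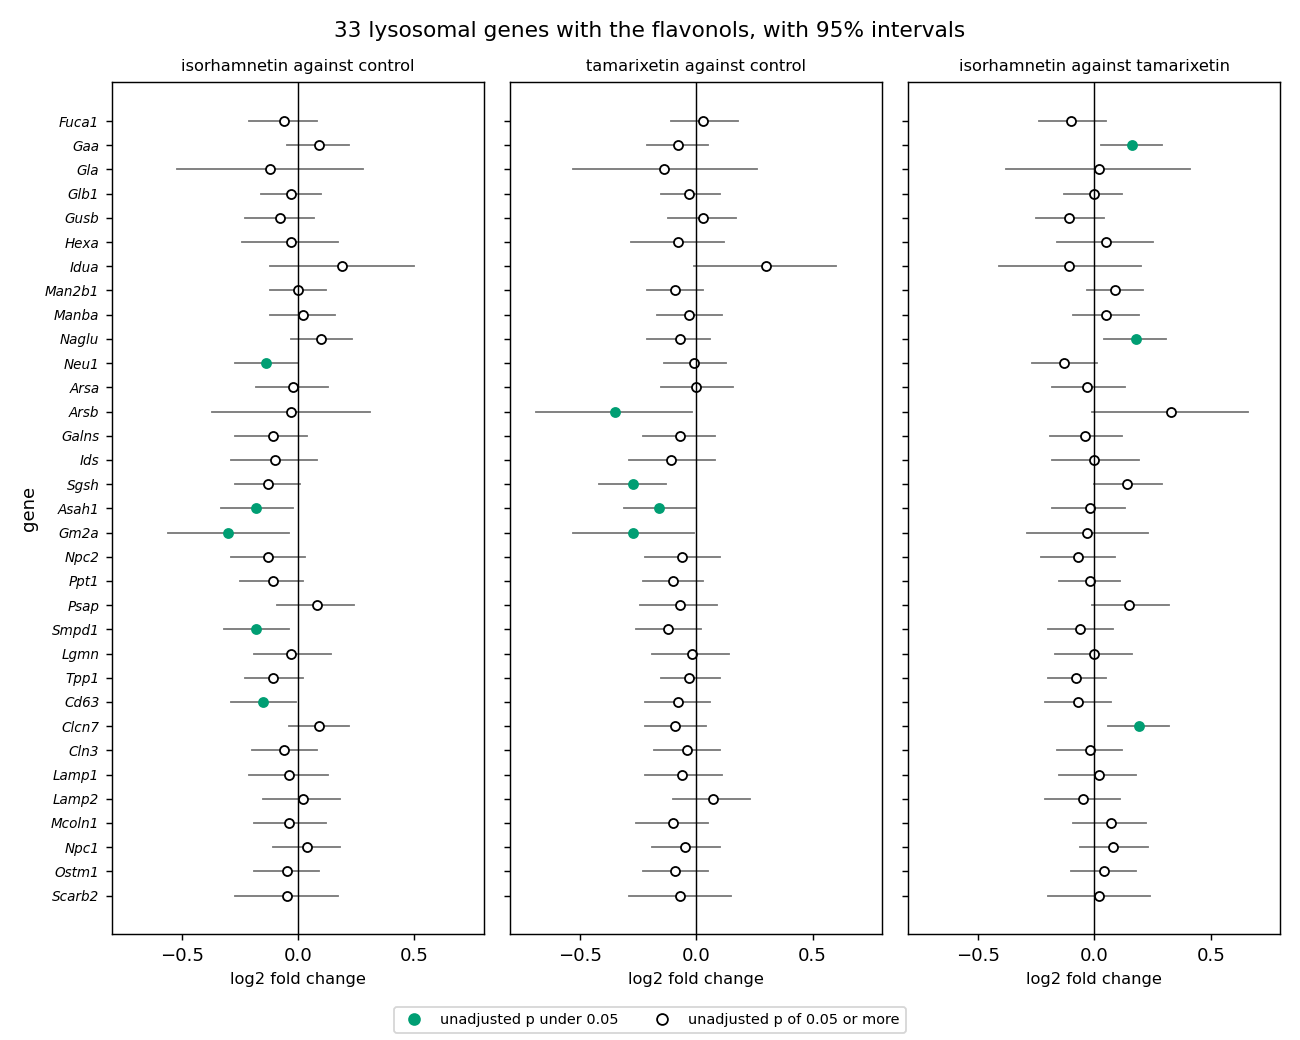
Log2 fold change of the 33 genes for isorhamnetin against control, tamarixetin against control and isorhamnetin against tamarixetin, with bars for the 95% interval and filled circles for an unadjusted p under 0.05. None passed the adjusted threshold, and the widest intervals are those of Gla, Idua and Arsb.

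Other lysosomal genes, from lists written from general knowledge, were counted beside the 33 for Torin1 against control. Among 10 measured cathepsins, 8 rose and 1 fell with a median of 0.38. Ctsk, a collagen-degrading protease of osteoclasts, rose by 4.46 ± 0.053, Ctsb by 1.45 ± 0.077, and Ctsc fell by 0.57 ± 0.054. Of 22 other hydrolases and their helpers 18 rose and 1 fell, with a median of 0.50. The acid phosphatase Acp5 rose by 1.81 ± 0.056 and the hyaluronidase Hyal1 by 3.72 ± 0.39, and Naaa, an amidase of N-acylethanolamines, fell by 0.42 ± 0.074. Of 22 other membrane proteins 9 rose and 2 fell, with a median of 0.26. The glycoprotein Gpnmb rose by 5.85 ± 0.063, Laptm4b was not well above background on the control arrays and at least 1.93-fold higher (adjusted p = 0.00605), and Laptm5 and the two-pore channel Tpcn1 fell by 0.32 ± 0.051 and 0.26 ± 0.062.

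The proton pump that acidifies the lumen had 12 of 17 measured subunits called higher and none lower, with a median of 0.44. Atp6v1a, the catalytic subunit, rose by 1.49 ± 0.050 and Atp6v0d2 by 4.98 ± 0.14. Of 9 genes that tag or sort hydrolases by mannose 6-phosphate or sortilin, 5 rose and 1 fell, with a median of 0.32. They include the phosphotransferase Gnptab (1.33 ± 0.053) and the receptor Igf2r (0.98 ± 0.061), and the sortilin gene Sort1 fell by 0.53 ± 0.15. Among 15 MiT/TFE factors and their regulators, 5 rose and 3 fell, with a median of 0.06. The folliculin partners Fnip2 and Fnip1 rose by 2.44 ± 0.048 and 1.25 ± 0.065, and Tfeb and the GTPase Rraga fell by 0.39 ± 0.12 and 0.25 ± 0.065. Tfeb had 4 kept probes, of which the brightest was used, and its adjusted p in limma was 0.0419. Against tamarixetin Tfeb and Rraga were both at -0.14 and did not pass the test. No rise among the 33 genes reached those of Ctsk, Hyal1, Gpnmb or Atp6v0d2, and the difference between the lists was not tested.

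**Figure D5:**
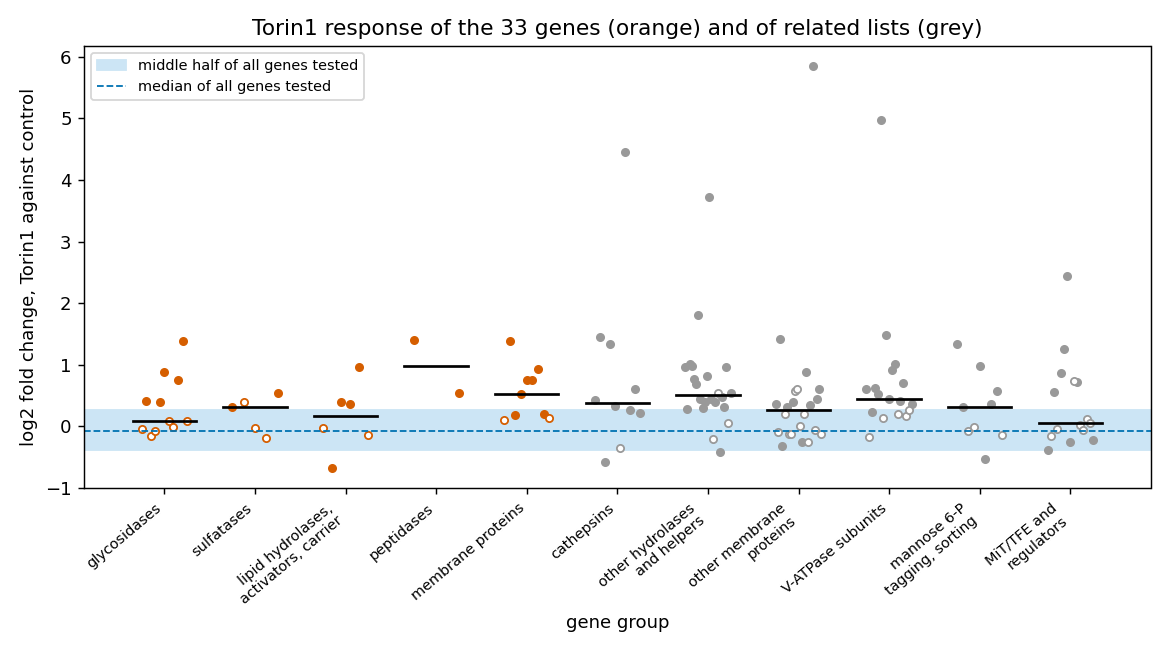
Log2 fold change with Torin1 against control for the 33 genes by role (orange) and for the measured genes of 6 related lists (grey), with open circles for genes that did not pass the test, a bar at each median, and the middle 50% of all genes tested as a blue band around their median of -0.08. The medians of all groups lie above that line, from 0.06 for the MiT/TFE list to 0.97 for the 2 peptidases.

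With isorhamnetin, 3 genes of these lists rose against control, picked here after their values were seen. The acid lipase Lipa was at 4.06 and 4.08 in control cells, 4.94 and 4.85 after isorhamnetin and 4.85 and 4.83 after Torin1, and with tamarixetin it differed from control by -0.08 ± 0.053. It rose by 0.83 ± 0.053 against control (adjusted p = 0.0133), to the level of the Torin1 arrays. Ctsk rose by 0.50 ± 0.053 (adjusted p = 0.0336) and Gpnmb by 0.54 ± 0.063 (adjusted p = 0.0414). These 3 were also called higher with isorhamnetin than with tamarixetin, Lipa by 0.91 ± 0.053 (adjusted p = 0.0064), Ctsk by 0.47 ± 0.053 (adjusted p = 0.033) and Gpnmb at an adjusted p of 0.00553, without a fold since it was not well above background on the tamarixetin arrays. These calls depend on the fit. Against control Lipa was called in 12 of 22 alternatives, Ctsk in 9 of 22 and Gpnmb in 6 of 21, with log2 fold changes from 0.77 to 0.87, 0.26 to 0.54 and 0.18 to 0.57. Fitted on the control and isorhamnetin arrays alone, none of the 3 was called, at adjusted p in limma of 0.128 for Lipa, 0.144 for Gpnmb and 0.148 for Ctsk. Against tamarixetin Lipa was called in 21 of 22 alternatives, Gpnmb in 19 of 21 and Ctsk in 9 of 22.

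The arrays carry more than 1 kept probe for 9 of the 33 genes, and the probe with the highest mean signal was used. With Torin1 against control, the probes of Lamp1 gave 0.52 and 0.53, those of Cln3 0.18 and 0.14, and those of Ppt1 0.36, 0.43 and 0.30. Those of Glb1 gave -0.08 and -0.01 and those of Galns -0.02 and -0.20. In each of these 5 genes the probes gave the same sign. The other 4 genes had probes that lay farther apart. The second probe of Lamp2, designed on another transcript, gave 0.32 where the first gave 0.75. For Asah1 the probes gave -0.02 and 0.38, for Gaa 0.42 and -0.01, and for Arsb 0.39 and -0.39. The second Gaa probe was far dimmer, at -1.70 and -2.16 in control cells, where the first was at 3.82 and 3.82. Averaged over its probes, Gaa was no longer called (0.21, adjusted p = 0.386) while Lamp2 was in every alternative tried.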

How the data were processed

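The genes and the gene lists were chosen with earlier results of these data known, so a pattern they share is not independent support. Per the file headers and the submitters' processing notes, the software was Agilent Feature Extraction 10.7.1.1, for 1 colour. The processed signal deposited by the authors is an intensity, corrected for background. The deposited value table is in log2 units: log2 intensity minus the 75th percentile of the array and the median of each probe gave it within 0.01 for 99.84% of 56605 probes, the deposited column medians lying between -0.11 and 0.173.

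Outlier spots were dropped (323 probes), spots of a probe averaged, and the 75th percentile over the kept probes subtracted. That set of probes was settled after values had been seen, and the percentile over all spots and over all probes are given as alternatives chosen after seeing the data. A probe was kept where a group had it well above background on both of its arrays (27562 probes), with the brightest probe per gene, 21528 genes, 12937 of them with a symbol from RefSeq accessions. The test was limma 3.58.1 (R 4.3.3), fitted to all 8 arrays (4 residual degrees of freedom), two-sided, adjusted by Benjamini-Hochberg over all genes, at 0.05. Intervals are 95% intervals of the fit; the number of arrays limits precision. Named genes follow a rule: all 33 by role, arrays shown for the 3 largest called rises of a role and each called fall, and up to 2 called rises and falls per related list. Exceptions are marked. Alternatives were normexp (offset 50), quantile and median scaling, other filters, the mean of probes, the deposited values, a replicate block, trend and robust eBayes, array weights, no spots of the first 48 rows, only the groups compared, and leaving out each array. All columns were matched to a sample.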

Additional observations from a re-analysis of the deposited data

How the results depend on the processing

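With 33 genes, Torin1 against control gave 12 called higher with median scaling, 16 to 21 under the other settings that kept all genes and arrays, 15 of 28 without the first 48 spot rows, and 16 to 19 leaving out 1 array. The count of falls was 2 with normexp, 3 with median scaling and 2 with trend and robust eBayes. For Torin1 against tamarixetin the rises numbered 15 to 25, and the falls 0 with no filter, 0 with the replicate block, 0 with only the 2 groups and 0 to 1 leaving out 1 array. In the paired fit with the replicate block, 18 rose and 1 fell against control, and 19 rose against tamarixetin. Same-numbered arrays deviated with correlations from -0.13 to 0.083 over the genes tested. These values cannot show whether same-numbered arrays had a culture in common. Median scaling turned Cln3 against control to -0.01, and without the first 48 spot rows, where its other probe was used, Arsb was -0.08 against tamarixetin and -0.39 against control. Median scaling also turned Cd63, Neu1, Idua and Scarb2 below 0 against control (-0.08, -0.11, -0.11 and -0.04) and Man2b1, Neu1 and Galns against tamarixetin (-0.03, -0.03 and -0.06). Other sign changes were of genes with main values from -0.08 to -0.01, and no gene was called after a sign change. The median of the 33 against control was 0.17 with median scaling, 0.21 with probes averaged, 0.25 without the first 48 rows, 0.26 with normexp and 0.35 to 0.40 otherwise. Called against control in every alternative were 13 of 20 genes. The others were Gaa, Gusb, Arsa, Npc2, Ppt1, Ostm1 and Cln3. Each flavonol comparison, and that of the isomers, had 0 of the 33 called under every alternative. All-gene calls there were unstable: 0 to 438 for isorhamnetin (121 as reported), 0 to 12616 for tamarixetin (17) and 1 to 14017 between the isomers (168), both upper counts with no filter. The percentile over all spots gave 19 rises against control and that over all probes 18, both with 1 fall. No group has more than 2 arrays. Apart from the second Arsb probe, the cause of these shifts was not tested.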
